A study of Mus musculus with 6 samples.

Results

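Skeletal and smooth muscle contractile genes were measured in RNA from mouse esophageal epithelium, in animals with and without a Cre transgene directed at the transcription factor gene *Klf4*. The set holds 37 genes chosen by name, 27 of skeletal and 10 of smooth muscle, among 19938 genes measured. Each of the 37 was represented by a single probe set naming only that gene. The values are log2 expression signals from 6 microarrays, a single animal on each, all 3 months old and of mixed genetic background. The 3 mutant animals were ED-L2-Cre/Klf4loxp/loxp and the 3 controls were Klf4loxp/loxp littermates of the same sex without Cre, so that floxed *Klf4* was common to all 6. Each genotype had 1 male (replicate 1) and 2 females (replicates 2 and 3). The ED-L2 promoter is active in squamous epithelia such as that of the esophagus, and muscle is not its known target.

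In striated muscle, myosin thick filaments pull on actin thin filaments when calcium binds troponin, and Z-disc proteins anchor the filaments. Smooth muscle has its own actins and myosin heavy chain and is switched on by phosphorylation of the myosin light chain. In the mouse esophagus the outer muscle coat is striated, while smooth muscle lies in the muscularis mucosae just beneath the epithelium and in vessel walls. *Des*, encoding desmin, and *Tpm2*, encoding beta-tropomyosin, stand on the skeletal list but are made in smooth muscle too.

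The 6 arrays correlated with each other at 0.974 to 0.992 across the 19938 genes. The 20 genes on a list of esophageal epithelium all read above the array median on all 6 arrays, and the mean of that list stayed between -0.057 and 0.045 on the log2 scale around its own average, so the labelled tissue was present throughout. That mean covers genes that went either way: 5 of the 20 had separate groups, 3 higher and 2 lower on the mutant arrays. Over all genes, 10.1% were separate and higher and 8.00% separate and lower. *Evpl*, encoding the cornified envelope protein envoplakin, fell by 1.03 ± 0.16 (adjusted p = 0.0370 in limma), the only one of the 20 to pass. Of all genes, 1.04% passed. *Klf4* itself was 0.37 ± 0.13 (SE, log2) higher on the mutant arrays, short of the threshold (adjusted p = 0.314 in limma), and the position of its probes relative to the deleted part was not known. Directions given here rest on the genotype labels. The labels name no batch. The number of arrays limits the precision. Each p-value sets a group difference against the spread between these animals, moderated over all genes.

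Skeletal muscle RNA was present in very different amounts from animal to animal, with low and high animals in both genotypes. A genotype difference was not resolved. Of the 27 skeletal members, 24 spanned more than 2 log2 units across the 6 arrays, from 4.23-fold for *Myh2* to 65.8-fold for *Myh1*. All 24 were lowest on control 1 and mutant 3, below each of the other 4 arrays. Of these 24 genes, 22 had the order control 2, control 3, mutant 1, mutant 2 above that low pair. The highest array was control 2 for 23 and control 3 for *Myh4*. Over all 19938 genes, 4.73% had control 1 and mutant 3 below the other 4 arrays, and 1.78% spanned more than 2 log2 units. A lower signal in bulk RNA can mean fewer cells of a type or less RNA per cell, and these cannot be told apart here.

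Promoter sequences are shown for *Acta1*, encoding skeletal alpha-actin, and for 3 fast and neonatal myosin heavy chain genes that neighbour each other on chromosome 11 and varied together over the arrays. They come from RefSeq (GRCm38.p6), run 5′ to 3′ from 250 bases before to 50 after the transcription start, and were chosen after the values were seen. Capitals mark a CArG box, the site of serum response factor, or a MEF2 site, the site of the MEF2 muscle factors. *Myh2*, also on chromosome 11 (chr11:67170777-67171076), was likewise lowest on control 1 and mutant 3. It had neither match and is not shown. The planned rule, members with the largest difference, was not followed. *Acta1* lies on the minus strand (chr8:123894726-123895025), and *Myh1* (chr11:67199852-67200151), *Myh4* (chr11:67237562-67237861) and *Myh8* (chr11:67276874-67277173) lie on the plus strand.
Acta1: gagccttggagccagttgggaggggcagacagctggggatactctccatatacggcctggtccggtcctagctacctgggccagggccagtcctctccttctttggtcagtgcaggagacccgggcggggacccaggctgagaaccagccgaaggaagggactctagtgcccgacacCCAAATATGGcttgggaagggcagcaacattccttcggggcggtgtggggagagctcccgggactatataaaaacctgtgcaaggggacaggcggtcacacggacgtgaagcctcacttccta
Myh1: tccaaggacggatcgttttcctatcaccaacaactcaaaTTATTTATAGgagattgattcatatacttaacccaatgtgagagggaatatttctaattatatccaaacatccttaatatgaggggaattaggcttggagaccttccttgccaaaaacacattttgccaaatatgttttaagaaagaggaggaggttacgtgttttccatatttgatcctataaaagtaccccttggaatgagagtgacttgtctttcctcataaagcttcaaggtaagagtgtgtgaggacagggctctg
Myh4: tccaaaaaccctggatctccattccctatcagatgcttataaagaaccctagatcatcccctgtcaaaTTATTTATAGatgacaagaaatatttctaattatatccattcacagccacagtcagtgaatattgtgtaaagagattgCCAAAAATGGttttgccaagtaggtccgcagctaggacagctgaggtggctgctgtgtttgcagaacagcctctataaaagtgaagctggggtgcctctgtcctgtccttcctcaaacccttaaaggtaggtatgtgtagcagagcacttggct
Myh8: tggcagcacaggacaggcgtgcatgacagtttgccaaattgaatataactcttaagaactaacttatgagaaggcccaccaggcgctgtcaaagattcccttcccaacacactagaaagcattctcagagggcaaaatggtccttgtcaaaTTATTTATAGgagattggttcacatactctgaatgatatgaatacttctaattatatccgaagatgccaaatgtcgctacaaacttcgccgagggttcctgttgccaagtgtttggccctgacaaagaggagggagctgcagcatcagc

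The CArG box CCAAATATGG of *Acta1* began 73 bases before the start, and CCAAAAATGG of *Myh4* began 104 bases before it. The 3 myosin promoters shown shared the same MEF2 match, TTATTTATAG. It began 211, 182 and 99 bases before the start of *Myh1*, *Myh4* and *Myh8*. The *Myh2* promoter had no MEF2 match. The table held promoters for 30 of the 37 members and not for *Actg2*, *Actn3*, *Myh11*, *Neb*, *Tagln*, *Tnni2* and *Tnnt3*. Some genes have several starts, so that the 23 skeletal members with an entry had 27 promoters, and the 7 smooth muscle members had 7. A CArG box was found in 2 of the 27 skeletal promoters, 0 of 7 smooth muscle promoters and 1.63% of all 32851 promoters in the table. It was counted only as CC, a run of A or T bases, and GG without mismatch. A site with a mismatched base was scored as absent. The *Acta2* promoter, scored without a CArG box, holds ccctatatgg and ccttgtttgg, each a single base away from that form. A MEF2 site was found in 5 of 27 skeletal promoters, in 1 of 7 smooth muscle promoters (*Synpo2*) and in 3.19% of all. The shorter E-box, CANNTG, was found in 85.2% of the skeletal promoters, 85.7% of the smooth muscle promoters and 72.3% of all. All 3 motifs were searched on both strands, and the CArG and MEF2 matches did not overlap each other. A match describes letters in this window and is not evidence of binding.

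**Figure D1:**
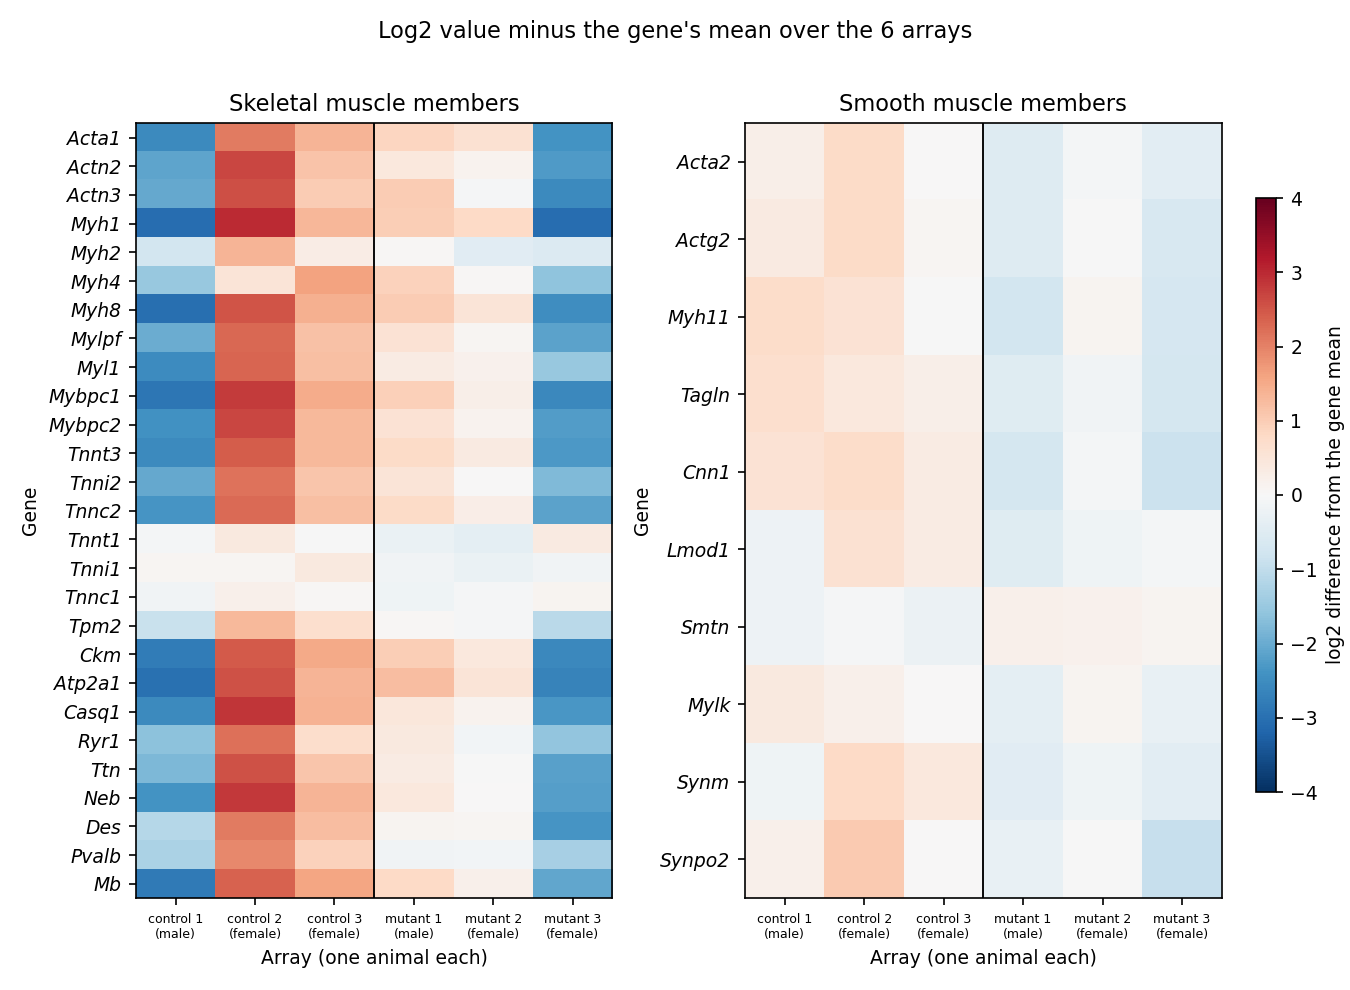
Heat map of the 37 members (rows) on the 6 arrays (columns, one animal each), coloured by the log2 value minus that gene's mean over the 6 arrays. In the skeletal panel control 1 and mutant 3 are blue and control 2 is the deepest red for most genes, while the slow troponin genes *Tnnt1*, *Tnni1* and *Tnnc1* are near white; in the smooth muscle panel the mutant mean is below the control mean for every gene except *Smtn*.

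Among thin filament genes, *Acta1* (probe set 10582592) read 8.43, 13.07 and 12.35 on controls 1 to 3 and 11.83, 11.61 and 8.60 on mutants 1 to 3. *Neb*, encoding the giant protein nebulin that runs along the thin filament, read 5.10, 10.31 and 8.83 against 7.90, 7.48 and 5.26. *Tnnt3*, encoding fast troponin T, which ties the troponin complex to tropomyosin, read 6.93, 11.89 and 10.78 against 10.25, 9.82 and 7.19. In each, control 1 and mutant 3 were low by several log2 units and the groups overlapped fully. *Tnni2*, the fast inhibitory troponin gene, read 6.41, 10.65 and 9.59 against 8.99, 8.50 and 6.70. *Tnnc2*, encoding the fast calcium-binding troponin, and *Tpm2* ranged from 6.37 to 10.98 and from 8.44 to 10.81.

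The slow-fibre partners of these troponins did not share that range. *Tnnt1* read 3.68, 4.13 and 3.75 on the controls and 3.47, 3.38 and 4.11 on the mutants, with a mean below 4.35, the dim limit (the 40th percentile of log2 values over all probe sets). *Tnnc1*, encoding the slow and cardiac calcium-binding troponin, stayed between 4.83 and 5.21. *Tnni1* read 5.24, 5.24 and 5.55 against 5.01, 4.89 and 5.02, and was the only skeletal member whose groups did not overlap, where 8.00% of all genes had every mutant below every control. The 3 slow genes spanned 0.38 to 0.76 log2 units over the 6 arrays, against 4.24 to 4.96 for the 3 fast partners. *Tnni1* and *Tnnc1* averaged above the dim limit on both genotypes. Their group means, 4.97 to 5.34, were nevertheless near the array medians of 5.01 to 5.13. The part of low signal in the small spans was not tested.

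**Figure D2:**
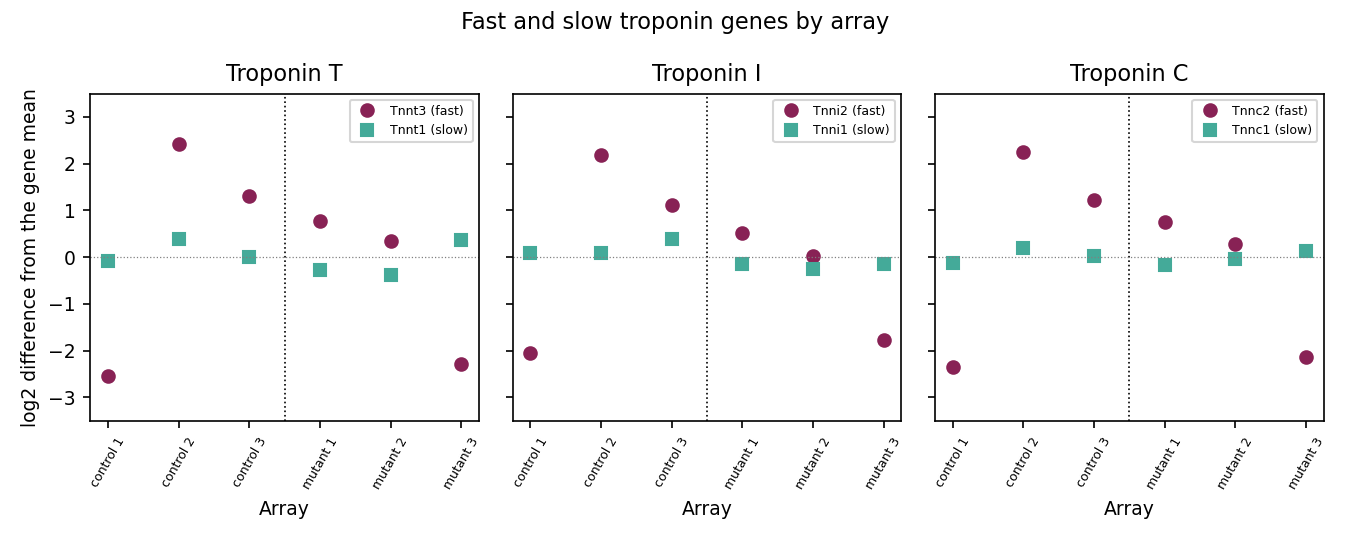
Each panel plots a fast (circles) and a slow (squares) troponin gene on the 6 arrays as the log2 difference from that gene's mean, with the controls left of the dotted line. The fast genes *Tnnt3*, *Tnni2* and *Tnnc2* span 4.24 to 4.96 log2 units with control 1 and mutant 3 lowest, and the slow genes span 0.38 to 0.76.

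Thick filament genes spanned 2.08 log2 units (*Myh2*) to 6.04 (*Myh1*). *Myh1*, encoding the fast IIx myosin heavy chain, read 5.55, 11.57 and 9.91 on the controls and 9.56, 9.38 and 5.53 on the mutants. *Myh8*, encoding the neonatal heavy chain, read 6.33, 11.85 and 10.77 against 10.35, 9.86 and 6.85. The 2 genes therefore put the arrays in nearly the same order, with only control 1 and mutant 3 exchanged. *Myh2*, the fast IIa gene, read 4.65, 6.73 and 5.66 against 5.43, 4.93 and 4.84, the narrowest span of the 4 heavy chains. *Myh4*, the fast IIb gene, read 5.32, 7.34 and 8.42 against 7.75, 6.87 and 5.22. It was the skeletal gene on which control 3 and mutant 1 both exceeded control 2. These heavy chains are close relatives in sequence, so signal may be shared between their probe sets and single values are uncertain.

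The myosin light chains and binding proteins followed the heavy chains. *Mylpf*, encoding the phosphorylatable fast light chain, read 5.23, 9.53 and 8.40 against 7.80, 7.30 and 5.09. *Mybpc2*, encoding the fast form of myosin-binding protein C, read 5.02, 10.09 and 8.71 against 7.99, 7.56 and 5.19. *Myl1*, the fast essential light chain gene, ranged from 4.43 to 9.26 and *Mybpc1*, the slow-type binding protein gene, from 4.52 to 10.18. *Mybpc1* is thus a gene named for slow fibres that spanned as much as the fast genes, unlike the slow troponins.

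At the Z-disc and along the sarcomere, *Ttn*, encoding the spring protein titin, read 6.01, 10.36 and 8.90 on the controls and 8.12, 7.78 and 5.64 on the mutants. *Des* read 7.43, 10.66 and 9.81 against 8.70, 8.66 and 6.21, and had the largest difference of the skeletal list, -1.44 ± 0.93 (SE, log2). Leaving out single arrays moved that difference between -2.38 and -0.62. On *Des*, control 1 stood 1.23 log2 units above mutant 3, the widest gap between the 2 low arrays among the 27 genes, whereas they lay within 1 log2 unit of each other on the other 26. The actin crosslinkers *Actn2* and *Actn3* of the Z-disc ranged from 5.15 to 10.09 and from 4.78 to 9.89.

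Calcium handling and energy genes gave the same picture. *Casq1*, encoding the calcium store protein calsequestrin, read 5.25, 10.65 and 9.20 against 8.25, 7.94 and 5.46. *Pvalb*, encoding the calcium buffer of fast fibres, read 4.77, 7.94 and 6.95 against 5.87, 5.92 and 4.69. *Atp2a1*, the calcium pump of the fast sarcoplasmic reticulum, and *Ryr1*, its release channel, ranged from 6.83 to 12.36 and from 5.48 to 9.30. *Ckm* (probe set 10550698), encoding muscle creatine kinase, read 6.79, 12.05 and 11.09 against 10.56, 10.01 and 7.00, and *Mb*, encoding the oxygen store myoglobin, 6.73, 11.94 and 11.14 against 10.36, 9.78 and 7.50. Low and high animals occurred in both genotypes for every one of these 6 genes.

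None of the 27 skeletal members passed the genotype comparison in limma (adjusted p from 0.237 to 0.922), where 1.04% of all genes passed, 0.672% lower and 0.366% higher on the mutant arrays. At an unadjusted p under 0.05 there was 1, *Tnni1*, against 12.4% of all genes. All 27 differences were negative, with a median of -0.79 beside 0.022 over all genes. That shared sign is no set of 27 separate results, because the genes varied together. Without control 2 the median was 0.015 and 14 of 27 differences were positive, and without mutant 3 it was 10 of 27. In the 4 females alone the median was -2.80, with 0 of the 27 passing. By role, the thin filament differences (log2 ± SE) were -0.60 ± 1.29 for *Acta1*, -1.20 ± 1.28 for *Neb*, -0.78 ± 1.30 for *Tnnt3*, -0.82 ± 1.06 for *Tnni2*, -0.74 ± 1.21 for *Tnnc2* and -0.71 ± 0.55 for *Tpm2*. The slow troponins differed by -0.20 ± 0.21 (*Tnnt1*), -0.37 ± 0.12 (*Tnni1*) and -0.068 ± 0.13 (*Tnnc1*). The slow troponins had the smallest SEs of the list.

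Thick filament genes differed by -0.85 ± 1.62 (*Myh1*), -0.61 ± 0.46 (*Myh2*), -0.41 ± 0.86 (*Myh4*), -0.63 ± 1.47 (*Myh8*), -0.99 ± 1.12 (*Mylpf*), -0.69 ± 1.15 (*Myl1*), -0.93 ± 1.47 (*Mybpc1*) and -1.02 ± 1.27 (*Mybpc2*). The Z-disc and lattice genes beside *Des* differed by -1.24 ± 1.09 (*Ttn*), -1.13 ± 1.20 (*Actn2*) and -1.04 ± 1.25 (*Actn3*). Calcium handling genes differed by -0.61 ± 1.50 (*Atp2a1*), -1.15 ± 1.34 (*Casq1*), -0.85 ± 0.92 (*Ryr1*) and -1.06 ± 0.74 (*Pvalb*), and the energy genes by -0.79 ± 1.43 (*Ckm*) and -0.73 ± 1.34 (*Mb*). Most of these differences were smaller than their own SE. SEs of the 24 wide genes lay between 0.46 and 1.62 log2 units. For *Myh1* the 95% interval of the difference reached from -4.62 to 2.92 and for *Acta1* from -3.62 to 2.41, so large differences of either sign lie inside them.

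**Figure D3:**
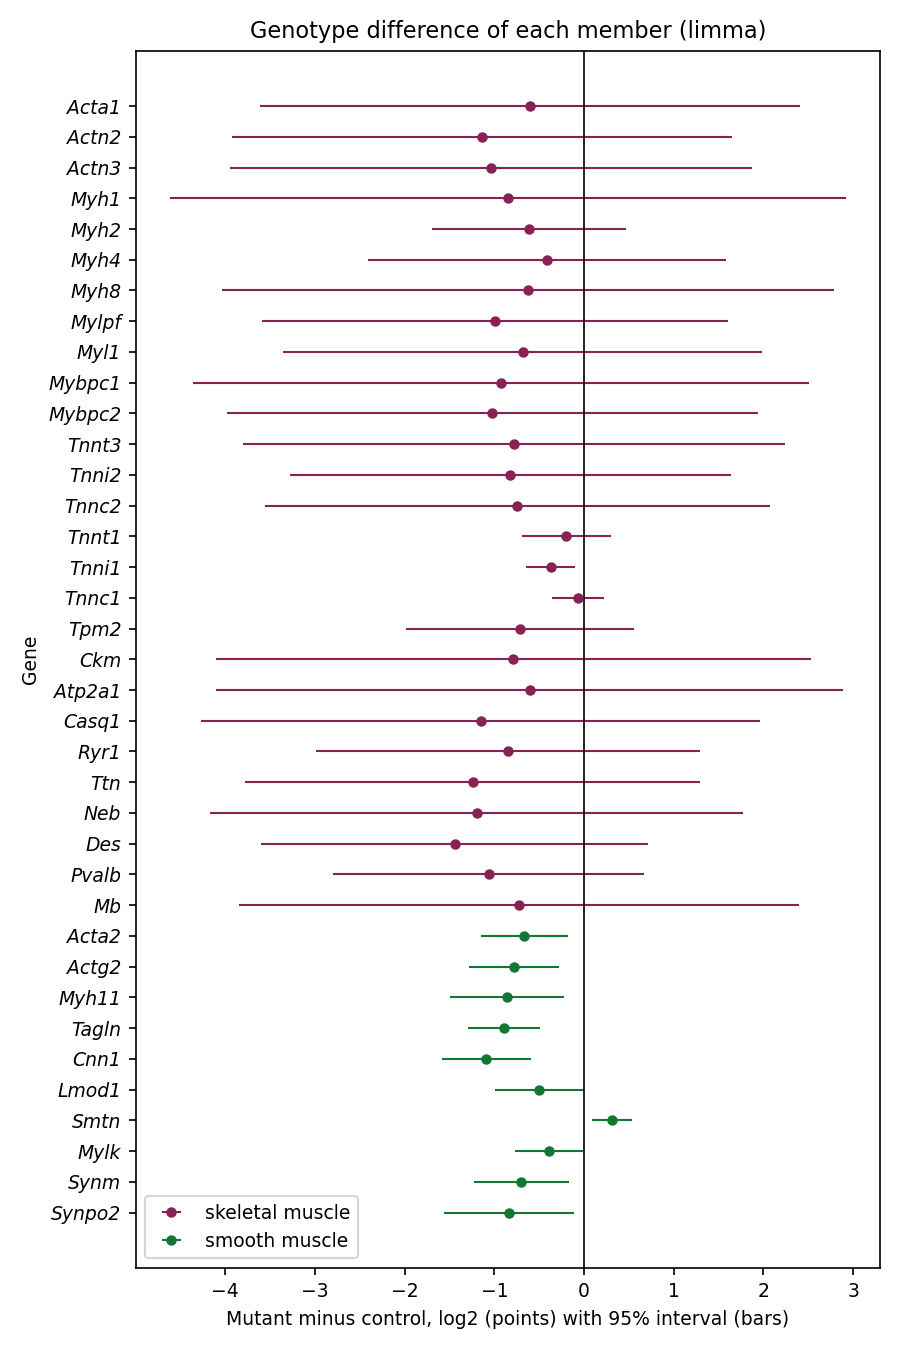
Mutant minus control difference of each member on the log2 scale (points) with its 95% interval from limma (bars), skeletal muscle in purple and smooth muscle in green. Skeletal points lie left of 0 with intervals that cross it for every gene except *Tnni1*; smooth muscle points lie left of 0 with much shorter intervals, apart from *Smtn* at 0.31.

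Smooth muscle genes varied less between animals than the skeletal members, and most were lower on the mutant arrays without passing the threshold. Their median within-group SD was 0.33 log2 units, against 2.01 for the skeletal members and 0.15 over all genes. Of the 10 members, 9 were lower, with differences from -1.09 to -0.39, and *Smtn* was higher. None passed an adjusted p of 0.05 in limma (1.04% of all genes passed). All 10 had an unadjusted p under 0.05, beside 12.4% of all genes. The 10 were chosen with earlier results known, and most of the 9 lower ones had mutant 2 as the highest mutant. They are therefore no set of 10 separate results. The groups did not overlap for 6 members that were lower (8.00% of all genes) and for *Smtn*, which was higher (10.1% of all genes). Their median difference was -0.74, and their spans over the 6 arrays were 0.43 to 1.97 log2 units.

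*Acta2* (probe set 10467124), encoding the smooth muscle alpha-actin, read 10.04, 10.57 and 9.82 on the controls and 9.30, 9.74 and 9.39 on the mutants, a difference of -0.67 ± 0.21 (SE; limma adjusted p = 0.229). *Actg2*, encoding the gamma-actin of visceral smooth muscle, read 8.10, 8.51 and 7.83 against 7.23, 7.74 and 7.12 (-0.78 ± 0.22; adjusted p = 0.176). *Myh11*, the smooth muscle myosin heavy chain gene, read 9.19, 9.06 and 8.44 against 7.75, 8.59 and 7.79 (-0.86 ± 0.27; adjusted p = 0.241). The groups were separate for both actins, whereas on *Myh11* mutant 2 exceeded control 3. Control 1, the lowest array for most skeletal genes, was the highest for *Myh11*. The actins of the 2 muscles are near-identical proteins, and shared signal between their probe sets was not tested.

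The actin-binding and regulatory genes held the differences closest to the threshold. *Tagln*, encoding the actin-binding protein transgelin, read 9.21, 8.96 and 8.75 against 8.03, 8.38 and 7.83, a difference of -0.89 ± 0.17 (limma adjusted p = 0.0717). *Cnn1*, encoding calponin, an inhibitor of the smooth muscle myosin motor, read 6.99, 7.15 and 6.73 against 5.70, 6.34 and 5.56, a difference of -1.09 ± 0.21 (adjusted p = 0.0758). Both stood just outside the threshold with all 3 mutants below all 3 controls. *Cnn1* passed without mutant 2 (adjusted p = 0.0348), and its adjusted p over the 17 alternatives ran from 0.0348 to 0.364. That of *Tagln* ran from 0.0601 to 0.347. *Lmod1*, encoding the filament nucleator leiomodin, and *Mylk*, encoding the kinase that starts contraction, differed by -0.50 ± 0.21 and -0.39 ± 0.16, with overlapping groups (adjusted p = 0.402 and 0.381).

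*Smtn*, encoding the filament-associated protein smoothelin, ran the other way. It read 7.32, 7.47 and 7.30 on the controls and 7.72, 7.67 and 7.62 on the mutants, a difference of 0.31 ± 0.095 with an adjusted p of 0.222 in limma. Its within-group SD, 0.076, was the smallest of the 37 members. *Synm*, encoding the intermediate filament protein synemin, read 6.93, 7.88 and 7.52 against 6.65, 6.92 and 6.66 (-0.70 ± 0.23; adjusted p = 0.253). *Synpo2*, encoding an actin-bundling protein of smooth muscle and Z-discs, read 6.77, 7.62 and 6.61 against 6.28, 6.56 and 5.65 (-0.84 ± 0.31; adjusted p = 0.322). For both, all mutants were below all controls.

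A score was formed for each list as the mean, over its genes, of the log2 value minus the gene's mean over the 6 arrays. The skeletal score was -1.93, 2.05 and 1.08 on controls 1 to 3 and 0.51, 0.12 and -1.84 on mutants 1 to 3, a range of 3.98 log2 units or 15.8-fold. Its means were 0.40 ± 2.08 on the controls and -0.40 ± 1.26 on the mutants (SD, n = 3 each), so the difference of -0.80 was smaller than the spread within either genotype. The smooth muscle score was 0.26, 0.59 and 0.12 on the controls and -0.44, -0.027 and -0.49 on the mutants, a range of 1.08 log2 units or 2.11-fold. Its means were 0.32 ± 0.24 and -0.32 ± 0.26, and all controls stood above all mutants. The difference of -0.64 exceeded either SD. Control 1 combined the lowest skeletal score with the second highest smooth muscle score, and mutant 1 combined the third highest skeletal score with the second lowest smooth muscle score. No p-value is given for a score, since the genes were chosen with earlier results known.

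**Figure D4:**
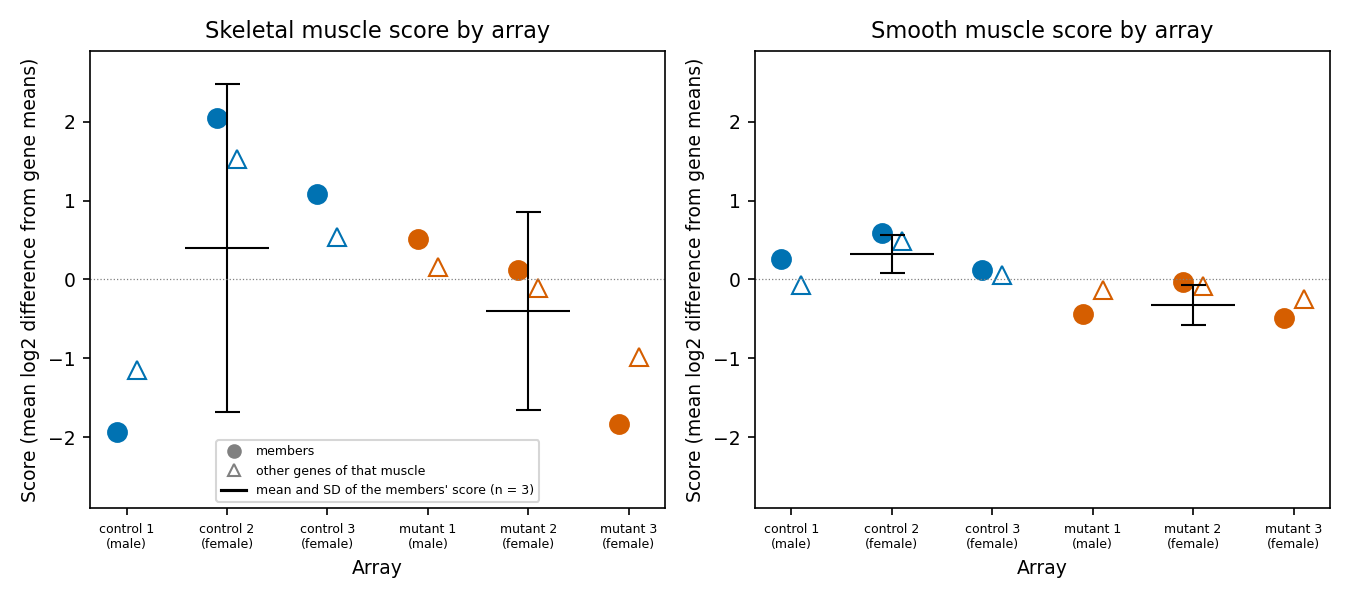
Score of each list on each array (mean log2 difference from gene means), with members as filled circles, the other genes of that muscle as open triangles, controls in blue and mutants in orange, and black bars for the mean and SD of the members' score (n = 3). On the left the skeletal scores run from -1.93 to 2.05 with both genotypes spread over most of that range; on the right, on the same axis range, the smooth muscle scores run from -0.49 to 0.59 with the controls above the mutants.

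Further skeletal muscle genes, listed apart from the members, repeated the order of the arrays. Of 75 such genes, 53 spanned more than 2 log2 units, 69 were highest on control 2, and 55 had control 1 and mutant 3 below the other 4 arrays. None passed in limma, 1 had an unadjusted p under 0.05, and the median difference was -0.68. The widest were *Xirp2*, encoding a sarcomere-associated repeat protein, at 6.04 log2 units, and *Actc1*, the cardiac actin gene, at 5.41. The smallest p belonged to *Tnnt2*, encoding cardiac troponin T (-0.39 ± 0.093, SE; adjusted p = 0.120), and *Myom3*, an M-line gene (-1.0 ± 0.50; adjusted p = 0.483). *Tnnt2* spanned only 0.47 log2 units.

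Single genes of that list differed widely in span, and those named here were picked after their values were seen. *Myf6*, the myogenic factor gene most active in mature fibres, spanned 3.32 log2 units, from 4.30 on control 1 to 7.62 on control 2. The myogenic factor genes *Myod1*, *Myog* and *Myf5* spanned 1.51, 0.79 and 0.50, and *Pax7*, which marks satellite cells, 0.45. Genes of mature fibres were not all wide, as *Trim63*, *Clcn1* and *Jsrp1* spanned 1.12, 1.08 and 0.54. The slow and cardiac genes *Myh7* and *Myl2* spanned 0.54 and 0.37, and the embryonic heavy chain gene *Myh3* 0.40. *Myl3*, which also encodes a slow and ventricular light chain, spanned 5.03 and was high on the same arrays as the fast genes. *Myf5*, *Myl2* and *Myh3* averaged below the dim limit of 4.35, so their small spans have little signal behind them. *Myh7*, *Myog*, *Pax7* and *Clcn1* had group means of 4.73 to 5.12, near or under the array medians of 5.01 to 5.13. Their small spans may have little signal behind them too, which was not tested.

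Of 41 further smooth muscle genes, 36 were lower on the mutant arrays, none passed in limma and 10 had an unadjusted p under 0.05, all of them lower (6.63% of all genes). These genes, too, may vary together and are not counted as separate results. The median difference was -0.28, less than that of the members. The smallest p belonged to *Flna*, encoding the actin crosslinker filamin A (-0.48 ± 0.10, SE; adjusted p = 0.0981), and *Rbpms*, encoding an RNA-binding protein of smooth muscle (-0.47 ± 0.11; adjusted p = 0.104). Both had separate groups. *Nexn*, *Pdlim3* and *Tpm1*, whose products also sit in striated sarcomeres, spanned 3.70, 3.43 and 2.85 log2 units with control 2 highest, as the skeletal genes did.

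Markers of other cells beneath the epithelium shared the genotype direction of the smooth muscle genes in part. On a list of fibroblast and lamina propria genes, 23 of 24 were lower on the mutant arrays, with a median of -0.80. In limma 3 fell, *Col1a2*, *Sparc* and *Thy1* (adjusted p = 0.0273, 0.0312 and 0.0479). Of all genes, 44.5% were lower and 0.672% fell. The fibroblast score was 0.020, 0.57 and 0.73 on controls 1 to 3 and -0.49, -0.37 and -0.46 on mutants 1 to 3. Control 3 had the highest fibroblast score but the lowest smooth muscle score of the controls. The 8 pericyte genes moved little at their median (-0.14), although 7 had a negative difference. *Ndufa4l2* was the extreme of that list and fell by 1.38 ± 0.17 (adjusted p = 0.0162). *Notch3* differed by 0.11 ± 0.089 with all mutants above all controls. The 12 endothelial genes showed almost no shift at their median (-0.015), 6 being lower and 6 higher. *Flt1*, a VEGF receptor gene, was the extreme of that list and fell by 1.90 ± 0.19 (adjusted p = 0.00982). No adipocyte or nerve gene passed. Of 7 adipocyte genes, 5 were lower, while *Fabp4*, encoding a fatty acid carrier, differed by 2.40 ± 0.44 (adjusted p = 0.0630) with all mutants above all controls, and *Pnpla2*, a lipase gene, by -0.27 ± 0.15. Of 11 nerve and glia genes, 3 were lower, and the smallest p belonged to *Uchl1* (0.17 ± 0.11) and *S100b* (0.14 ± 0.10). The part of these cells in the smooth muscle difference was not tested. With the skeletal score as a covariate, added after the values were seen, the median of the smooth muscle members was -0.64 and 0 passed.

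The sexes were also compared, with 1 male pair and 2 animals of each genotype among the females. The skeletal score was 2.44 higher on the male mutant than on the male control and the difference was -2.42 between the female mutants and the female controls. For the smooth muscle score the differences were -0.69 in males and -0.61 in females. An interaction of genotype and sex passed for 0 of 37 members in limma (lowest adjusted p = 0.517), where 0.0451% of all genes passed. At an unadjusted p under 0.05 there were 24 skeletal members, 0 smooth muscle members and 5.82% of all genes. The 24 varied together over the arrays and are not separate results. With a single male per genotype, sex and the individual animal cannot be told apart.

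The skeletal members were among the most variable genes within genotypes. Of the 27 skeletal members, 21 ranked among the 100 genes with the largest within-group SD and *Myh1* ranked 3 of 19938. No smooth muscle member was among those 100.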

How the data were processed

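Total RNA of 6 mice was amplified, labelled with biotin and hybridised, a single animal per array, per the labels' protocols. The authors deposited log2 values of 28853 probe sets, made with Partek 6.4, per the submitters' processing notes. How background was corrected and arrays normalized is not given in the sources used here. That the scale is log2 was read off the values (array medians 5.01 to 5.13, maxima 13.99 to 14.67). Gene names came from GEO's annotation of the platform, and symbols were brought up to date through RefSeq: 21789 named 1 gene, 1621 several and 5443 were unnamed here. The brightest single-gene probe set of each gene gave 19938 genes.

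The genotype comparison used R 4.3.3 and limma 3.58.1 (two-sided moderated test, 4 residual degrees of freedom before and 7.58 after moderation). P-values were adjusted by Benjamini-Hochberg across the 19938 genes, and a gene passed under 0.05. Errors are moderated SEs, and SDs are over 3 animals. Exact permutation of 3 against 3 arrays cannot go below 0.1 and was not used. The steps were tested on simulated data. The members and lists were chosen with earlier results of these data known. Values on all arrays are given for 2 members of each role with the largest difference and for 10 defining members; a further few are given beside their partners. From each other list the rule takes up to 4 passing genes with the smallest p, or the 2 smallest where none passes, and *Klf4*. Alternatives changed the normalization, centring, dim filter, probe set choice, replicate block, sex term, moderation and weights, or left out arrays. Planned protein comparisons of actins and myosins were not analysed here. Same-numbered arrays did not deviate together (correlations of their deviations -0.17, 0.090 and -0.10). Control 1 and mutant 3, the low pair for skeletal genes, had the highest correlation of any control and mutant (0.31). No label ties a mutant to its littermate, so these values cannot show whether litters were matched.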

Additional observations from a re-analysis of the deposited data

Results flagged for a closer look

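The skeletal muscle score moved in opposite directions with genotype in the sexes. It was 2.44 log2 units higher on the male mutant than on the male control, while the difference between female mutants and female controls was -2.42 with both female mutants below both female controls. The difference between these scores was not tested. Among single genes, the genotype by sex interaction had an unadjusted p under 0.05 for 24 of the 27 skeletal members and for 5.82% of all genes. Limma's adjusted p was 0.517 or higher for every member. The 24 genes varied together over the arrays, so they are no set of 24 separate results. Each genotype had 1 male, so sex and the individual animal cannot be told apart.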

How the results depend on the processing

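No skeletal muscle gene of the set passed under any of the 16 alternatives run on it. For smooth muscle, a further one was added after seeing the data (the skeletal score as a covariate), and over these 17 the only pass was *Cnn1* without mutant 2 (0 to 1 of 10 when arrays were left out). Under each of the 17, 9 smooth muscle members were lower and 1 higher. The number of all genes passing, 207 as reported, was 81 with the replicate block, 7 without moderation, 370 with array weights, 83 in females alone, 311 with the skeletal score as a covariate, and 44 to 193 when single arrays were left out. The skeletal median was -2.80 in females alone. For the 15 members that changed sign, leaving out single arrays gave differences of -2.03 to 0.43 for *Acta1*, -2.58 to 0.46 for *Myh1*, -1.27 to 0.28 for *Myh4*, -2.29 to 0.47 for *Myh8*, -2.11 to 0.31 for *Myl1*, -2.60 to 0.24 for *Mybpc1*, -2.49 to 0.050 for *Mybpc2*, -2.25 to 0.23 for *Tnnt3*, -2.06 to 0.064 for *Tnni2*, -2.11 to 0.20 for *Tnnc2*, -0.15 to 0.015 for *Tnnc1*, -2.38 to 0.31 for *Ckm*, -2.25 to 0.57 for *Atp2a1*, -1.87 to 0.035 for *Ryr1* and -2.33 to 0.27 for *Mb*. Others kept their sign but moved widely, from -2.71 to -0.0097 for *Casq1*, -2.69 to -0.081 for *Neb*, -0.72 to -0.31 for *Lmod1* and -1.04 to -0.53 for *Synpo2*. The cause was not tested. The replicate block changed no member's call. Arrays carry no read depth, and signals under the dim limit bound little.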

Other observations

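Some genes outside the lists had the same low pair of arrays as the skeletal members. Of the 100 genes with the largest within-group SD, 49 stood outside the lists. Of these, 32 had control 1 and mutant 3 below the other 4 arrays, as did 4.73% of all genes. Ranking by within-group SD favours that pattern, since it puts a low array in each genotype. The lists do not hold every muscle gene, so a gene outside them can still be a muscle gene. *Car3*, encoding a carbonic anhydrase abundant in skeletal muscle, read 6.14, 12.17 and 10.76 on controls 1 to 3 and 10.56, 9.87 and 6.47 on mutants 1 to 3. *Kcnma1*, encoding a calcium-activated potassium channel of smooth muscle and other cells, had the largest SD of all genes and another order. It read 12.68, 6.17 and 3.26 on the controls and 13.15, 4.14 and 3.99 on the mutants, high on the male array of each genotype.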
